A study of Mus musculus with 22 samples.

Results

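The endothelial programme was followed through 10 genes chosen by symbol, Kdr, Flt1, Tek, Etv2, Tal1, Lmo2, Sox7, Sox18, Cdh5 and Pecam1, each matched to 1 of the 32285 genes of the deposited count matrices. They were read in gastruloids, aggregates of mouse embryonic stem cells whose cells take on embryonic identities in a dish. All groups shared the wild-type line E14Tg2A, wells seeded with 300 cells, 48 h of aggregation and then 3 µM CHIR99021, which switches on Wnt signalling by blocking GSK3. The groups differed in day, experiment and lanes. In MULTI-seq the cells of each gastruloid carry their own DNA tag before pooling, and the gastruloid is the replicate: MULTI-seq 1 held 24 of day 5, MULTI-seq 2 held 12 each of day 4 and day 4.5, and MULTI-seq 3 held 24 of day 3 and 16 each of days 3.5, 4, 4.5 and 5. The 10X lanes of day 3 and day 4 and pool C of MULTI-seq 2 had cells without gastruloid calls and entered no test, and the MULTI-seq 2 lanes of days 3 and 3.5 were not analysed here. Both days of each comparison shared 1 pool and its lanes, and the labels do not say whether the gastruloids of a day came from separate cultures, so the p-values measure the spread between gastruloids. In MULTI-seq 3, day 3, days 3.5 and 4, and days 4.5 and 5 were in separate lanes. Values followed across these sets of days therefore also cross lanes.

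Blood vessels and blood arise from mesoderm that carries KDR (VEGFR2), the main signalling receptor for the growth factor VEGF-A, while FLT1 (VEGFR1) binds the same ligand tightly and dampens the signal. In that mesoderm the ETS factor ETV2 acts briefly at the head of the programme together with the basic helix-loop-helix factor TAL1 and its bridging partner LMO2. Later endothelial cells express the SoxF factors SOX7 and SOX18, the angiopoietin receptor TEK (TIE2), the junction cadherin CDH5 (VE-cadherin) and the adhesion molecule PECAM1.

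The genes lie, in the GRCm38 annotation, at chr5:75932827-75978458 (Kdr), chr5:147561604-147726011 (Flt1), chr4:94739289-94874976 (Tek), chr7:30633616-30635852 (Etv2), chr4:115056426-115071755 (Tal1), chr2:103957986-103981878 (Lmo2), chr14:63943673-63950732 (Sox7), chr2:181669836-181671640 (Sox18), chr8:104101625-104144511 (Cdh5) and chr11:106654217-106750628 (Pecam1). Kdr and Flt1 are on chromosome 5, Tek and Tal1 on chromosome 4, and Lmo2 and Sox18 on chromosome 2, none of these pairs being neighbours. Lmo2 overlaps 4931422A03Rik and Cdh5 overlaps Gm29682, each on the opposite strand. No source used here states whether the counting used strand, so the UMIs of these 2 genes may include reads of their partners.

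RefSeq start-site windows (GRCm38.p6, from 250 bases before to 50 bases after the start, 5′ to 3′ on the gene's strand) were matched for 5 of the 10 genes: Kdr, Flt1, Etv2, Tek and Tal1, the last with 2 starts. They are shown because ETV2 belongs to the ETS family, whose sites share a shorter core, GGAA or GGAT. The search was for GGAAG, a longer form of it, on either strand (CTTCC on the other), printed in capitals. Other forms of the core were not searched, so a window without a match may still hold them. Kdr and Flt1, which were also found in cells not named Endothelium, are set beside Tal1 (downstream start) and Tek, most of whose UMIs came from Endothelium cells.
Kdr (chr5:75978406-75978705, - strand): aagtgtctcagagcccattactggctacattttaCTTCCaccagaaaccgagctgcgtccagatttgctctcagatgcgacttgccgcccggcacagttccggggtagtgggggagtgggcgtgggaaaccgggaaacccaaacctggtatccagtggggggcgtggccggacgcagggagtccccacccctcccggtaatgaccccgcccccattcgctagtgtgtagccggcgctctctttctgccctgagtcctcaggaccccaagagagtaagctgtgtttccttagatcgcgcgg
Flt1 (chr5:147725962-147726261, - strand): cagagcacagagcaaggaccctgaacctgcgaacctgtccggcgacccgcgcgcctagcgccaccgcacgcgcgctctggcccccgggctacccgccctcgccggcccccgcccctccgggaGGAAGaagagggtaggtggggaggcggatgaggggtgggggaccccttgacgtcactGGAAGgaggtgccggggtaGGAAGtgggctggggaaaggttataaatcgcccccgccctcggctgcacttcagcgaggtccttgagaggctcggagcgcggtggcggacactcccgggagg
Tal1 (chr4:115057561-115057860, + strand): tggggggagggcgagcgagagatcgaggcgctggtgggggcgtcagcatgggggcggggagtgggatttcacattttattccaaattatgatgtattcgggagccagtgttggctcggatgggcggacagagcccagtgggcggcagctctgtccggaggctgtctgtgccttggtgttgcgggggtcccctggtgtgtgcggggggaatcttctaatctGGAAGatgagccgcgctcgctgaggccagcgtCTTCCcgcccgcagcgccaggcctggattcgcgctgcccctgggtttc
Tek (chr4:94739039-94739338, + strand): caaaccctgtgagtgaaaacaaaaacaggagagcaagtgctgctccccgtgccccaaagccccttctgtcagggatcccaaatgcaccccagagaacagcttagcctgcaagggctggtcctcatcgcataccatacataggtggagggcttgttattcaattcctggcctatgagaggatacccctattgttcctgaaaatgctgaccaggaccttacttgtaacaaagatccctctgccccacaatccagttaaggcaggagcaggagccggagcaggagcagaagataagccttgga
Kdr held 1 match, Flt1 3, the downstream Tal1 start 2, Etv2 2, and the upstream Tal1 start and Tek 0. Of the 6 windows 4 held at least 1 match, whereas 71.4% of 32851 windows of that length genome-wide did. The matches are letters in a window and not measured sites.

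Lanes held 64703013 to 307883815 UMIs, each a counted RNA molecule, and the median cell had 8287 to 38443. The median mitochondrial share of a cell's UMIs was 1.94% to 2.26% in the lanes of MULTI-seq 3 and 4.85% to 5.48% in the others, so comparisons across experiments also cross this difference. The 77674 cells of the authors' cell table carried 1 of 25 type names given by the authors, which come from clusters of gene expression, and 303 of them (0.390%) were named Endothelium. Levels are CPM, the UMIs of a gene per 1000000 UMIs of the same cells of a gastruloid, averaged over gastruloids with at least 5 cells of the type.

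In means pooled over days and experiments, each of the 10 genes had its highest level in Endothelium among the 24 types with such gastruloids, but they parted into a group found almost only there and a group shared with other types. Since clusters were made from these genes among others, the levels by type are a description without a test.

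**Figure D1:**
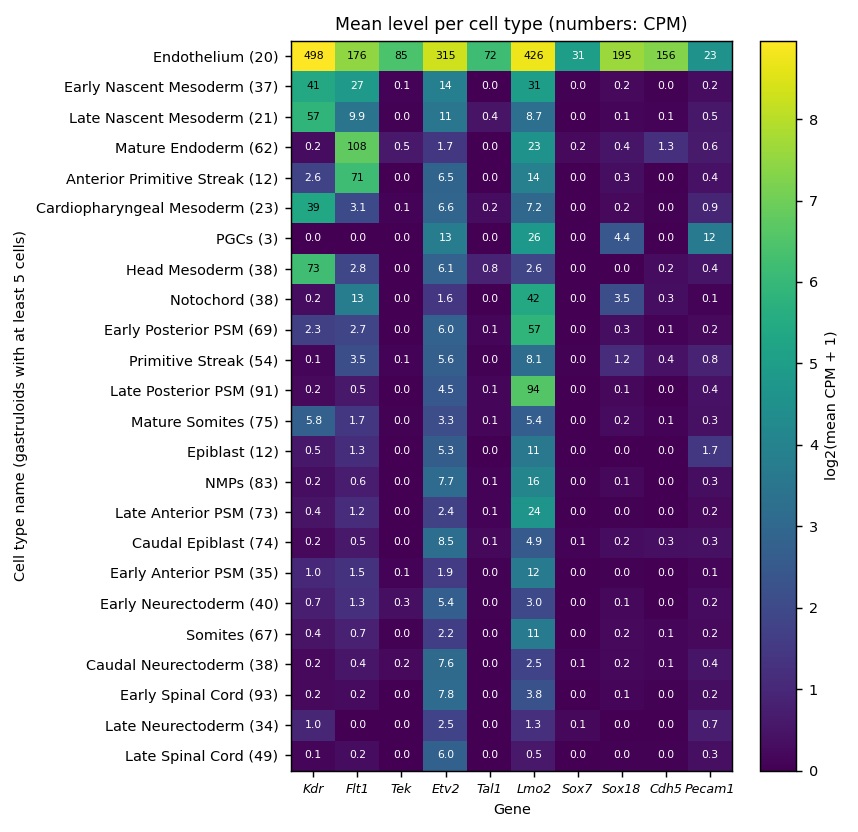
Mean level of each gene (columns) in each cell type (rows, with the number of gastruloids with at least 5 cells of the type in brackets); colour is log2(CPM + 1) and the printed numbers are CPM. Endothelium is brightest in every column, and the next levels are 108 CPM for Flt1, 93.9 for Lmo2 and 73.1 for Kdr.

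Among the receptors, Kdr had a level of 498 ± 142 CPM in Endothelium (SD, n = 20 gastruloids). Pooled over days, which differ as given further on, 3 mesoderm types came next, with 73.1 ± 64.7 CPM in Head Mesoderm (n = 38), 56.7 ± 54.2 in Late Nascent Mesoderm (n = 21) and 41.5 ± 57.4 in Early Nascent Mesoderm (n = 37), and the gaps among these 3 were smaller than their SDs. Flt1 reached 176 ± 68.5 CPM in Endothelium and 108 ± 77.0 CPM in Mature Endoderm (n = 62), a gap smaller than the pooled SD of the 2 types. Anterior Primitive Streak followed with 71.2 ± 46.3 CPM of Flt1 (n = 12). Tek stood at 85.5 ± 40.5 CPM in Endothelium and below 1 CPM in each of the other 23 types.

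Of the early transcription factors, Tal1 had 72.3 ± 32.5 CPM in Endothelium and was below 1 CPM in each of the other 23 types. Etv2 had 315 ± 204 CPM in Endothelium and 13.7 ± 8.48 CPM in Early Nascent Mesoderm. Unlike Tek or Tal1, Etv2 was above 1 CPM in all 23 other types, with a median over them of 5.96 CPM and a lowest value of 1.65. Lmo2 had 426 ± 236 CPM in Endothelium, 93.9 ± 39.8 in Late Posterior PSM (n = 91; PSM is presomitic mesoderm, which gives rise to somites) and 56.6 ± 44.2 in Early Posterior PSM (n = 69). These were followed by Notochord, the midline rod of the embryo, with 41.5 CPM of Lmo2.

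The SoxF factors, Cdh5 and Pecam1 were below 1 CPM in most other types. Sox7 had 30.6 ± 14.9 CPM in Endothelium and was below 1 CPM in each other type. Sox18 had 195 ± 80.8 CPM and was below 1 CPM in 20 of the 23 others, with 4.35 CPM in PGCs (primordial germ cells, n = 3), a level that rests on at most 3 UMIs, and 3.46 ± 12.1 in Notochord (n = 38) as the next levels. Cdh5 had 156 ± 75.2 CPM and was below 1 CPM in 22 of 23, Mature Endoderm being the exception at 1.35 CPM. Pecam1 had 22.6 ± 14.4 CPM in Endothelium and was below 1 CPM in 21 of the 23 others, with 11.6 ± 8.78 in PGCs (n = 3), a gap smaller than the pooled SD.

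Counted over all cells, Endothelium held 0.384% of all UMIs but 81.0% of those of Sox7, 78.7% of Tek, 77.6% of Cdh5, 75.9% of Tal1 and 72.1% of Sox18. For the other 5 genes most UMIs came from elsewhere. Kdr had 23.0% of its UMIs in Endothelium, 27.4% in Late Nascent Mesoderm and 13.8% in Head Mesoderm. Flt1 had 7.03% in Endothelium and 62.4% in Mature Endoderm. Lmo2 had 7.57% in Endothelium, 29.6% in Late Posterior PSM and 29.1% in Early Posterior PSM. Etv2 had 17.2% there and Pecam1 14.8%, with 18.3% of Pecam1 in PGCs.

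**Figure D2:**
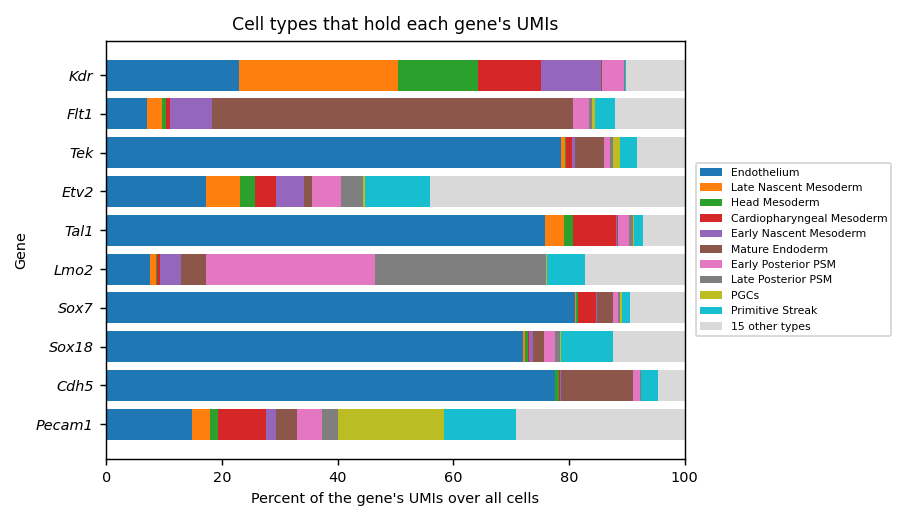
Percent of each gene's UMIs (horizontal axis) that came from each of 10 named cell types and from the 15 other types together, over all 77674 cells. Endothelium holds 72.1% to 81.0% of Tek, Tal1, Sox7, Sox18 and Cdh5, and 7.03% to 23.0% of Kdr, Flt1, Etv2, Lmo2 and Pecam1.

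The name Endothelium was set beside the authors' second label, the type of an embryo reference to which each cell was mapped. Both labels come from gene expression, so the marker levels and genes per cell given for these sets are descriptions and not an independent check. Of the 303 cells, 275 mapped to an endothelial or haemato-endothelial name: 118 to venous endothelium, 87 to embryo proper endothelium, 34 to endocardium (the lining of the heart), 22 to allantois endothelium, 13 to haemato-endothelial progenitors and 1 to yolk sac endothelium. In these 275 cells all 8 other endothelial markers listed (Egfl7, Ramp2, Esam, Cldn5, Emcn, Icam2, Erg, Fli1) were above their level in other cells, with a summed level of 2519 CPM against 44.3. The remaining 28 cells mapped elsewhere, 22 of them to sclerotome, and the 8 markers summed to 160 CPM in them. Of the 28, 20 had no UMI of any of the 10 genes, 6 had UMIs of 1 gene, 1 of 2 and 1 of 6. Their median depth was 14925.5 UMIs against 23809 in the 275. They came from 13 gastruloids and 10 lanes, so the tests within Endothelium and of its share are also given without them. Without the 28 cells the mean levels by gastruloid (n = 20) were 518 ± 146 CPM for Kdr, 331 ± 213 for Etv2, 77.6 ± 45.0 for Tal1 and 439 ± 231 for Lmo2. The other 6 genes also moved by less than 1 SD. MULTI-seq tags called 18 of the 303 cells doublets, and these entered no gastruloid's sum. Any 2 lanes shared at most 0.410% of the cell barcodes of the smaller lane.

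Single cells of the 275 mostly carried several of the genes at a time. All 10 were detected in 35 cells, 9 in 50, 8 in 50, 7 in 44, 6 in 44, 5 in 31, 4 in 16 and 3 in 5. At least 5 genes were found in 254 of the 275 (92.4%) and in 25 of 77371 cells of other types (0.0323%), of which 15 had an endothelial reference name.

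After each cell was thinned to 5000 UMIs, Kdr was found in 88.7% of the 275 cells, Lmo2 in 71.9%, Etv2 in 58.8%, Flt1 in 50.7%, Sox18 in 47.4% and Cdh5 in 46.0%. The shares were 32.5% for Tal1, 27.7% for Tek, 15.0% for Sox7 and 9.12% for Pecam1. In 5875 Late Spinal Cord cells, a neural type used as background with a median depth of 24617 UMIs, the shares were 0% to 0.394% for 9 of the genes and 2.71% for Etv2. Without thinning, and over all 303 cells, Kdr was found in 91.1% and Pecam1 in 24.1%.

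A further 27 cells had an endothelial reference name but another type name, such as Cardiopharyngeal Mesoderm (11 cells, 8 of them in the 10X day 4 lane) or Late Nascent Mesoderm (4 cells). Pooled, they held 715 CPM of Etv2, 568.3 of Kdr, 201 of Lmo2 and 112 of Tal1. They held 50.0 CPM of Flt1, 14.1 of Sox7, 8.98 of Sox18, 5.13 of Cdh5, 2.57 of Pecam1 and 1.28 of Tek. In the 275 cells the pooled levels were 323 CPM of Etv2, 514 of Kdr, 148 of Cdh5, 73.4 of Tek and 181 of Sox18. Both sets were selected on expression, so the contrast is a description.

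Cells named Endothelium were first seen on day 4 and were more frequent on later days. In the 10X day 4 lane, which has no gastruloid calls, 6 of 2440 cells (0.246%) were named Endothelium and 15 (0.615%) had an endothelial reference name. None was seen among 5778 cells of day 3 or 4679 cells of day 3.5 in MULTI-seq 3, which allows shares of up to 0.0519% and 0.0641% (the share that 3 counts would give). Limits of this kind treat cells as independent and do not cover the spread between gastruloids. On day 4 of MULTI-seq 3, 1 of 16 gastruloids held 1 cell named Endothelium. On day 4.5, 7 of 16 gastruloids held 12 cells, with a lowest, median and highest share of 0%, 0% and 0.897%, a mean of 0.252% ± 0.343 (SD). By day 5, 15 of 16 gastruloids held 122 cells, from 0% over a median of 1.14% to 2.47%, a mean of 1.10% ± 0.810. The groups overlapped, and 15 of the 16 gastruloids of day 5 were above the median of day 4.5, which was 0%. The median gastruloid had 279 cells on day 4.5 and 697 on day 5. Counts of gastruloids holding any such cell therefore also depend on the cells sampled. The difference of 0.852 percentage points passed a two-sided permutation test (adjusted p = 0.00144 over 3 comparisons). Without the 28 cells it was 0.8385 points (permutation test, adjusted p = 0.00096). Day 4 against day 3.5 could not be decided by this test, since 1 gastruloid held the only such cell (permutation test, adjusted p = 0.996). By endothelial reference name, 4 of 16 gastruloids of day 4 held 5 cells and day 3.5 held 0 (permutation test, adjusted p = 0.101).

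In MULTI-seq 2, 0 of 1510 cells of day 4 were named Endothelium, a limit of 0.199%, while 7 of 12 gastruloids of day 4.5 held 24 such cells (0% to 4.17%, median 0.344%, mean 0.795% ± 1.23). The difference passed the permutation test (adjusted p = 0.00912) and was 0.614 points without the 28 cells (adjusted p = 0.0258, permutation test). It no longer passed with gastruloids of at least 100 cells (permutation adjusted p = 0.0509), without lane 2 (0.0920) or without lane 3 (0.117). On day 5 of MULTI-seq 1, 17 of 24 gastruloids held 77 such cells, a mean of 0.846% ± 0.826, a median of 0.677% and a highest value of 2.65%.

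**Figure D3:**
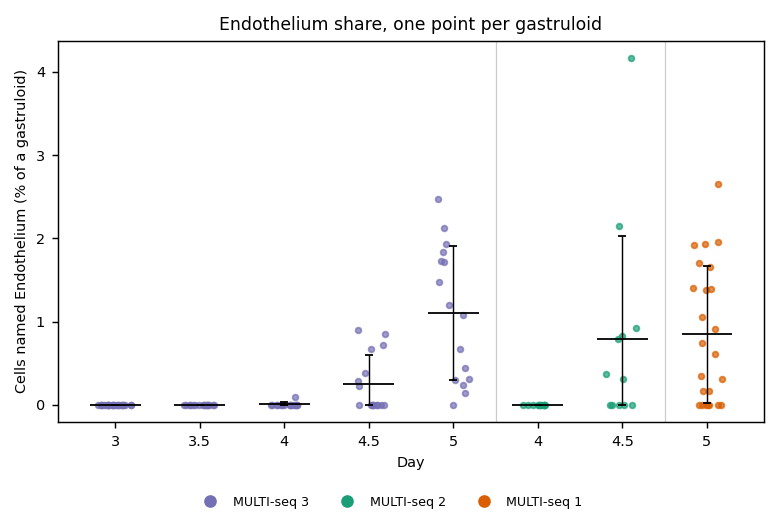
Percent of a gastruloid's cells named Endothelium (vertical axis) by day and experiment, 1 point per gastruloid; horizontal bars are means and error bars are SDs, with lower bars ended at 0. Shares are 0 through day 3.5, reach 0.897% on day 4.5 and 2.47% on day 5 in MULTI-seq 3, and reach 4.17% on day 4.5 in MULTI-seq 2.

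Levels within Endothelium cells by day are first given as pooled values without a test. Pooled over the cells with an endothelial reference name, Tal1 stood at 265 CPM in the 10X day 4 lane (4 cells), 171 on day 4.5 of MULTI-seq 2 (19 cells) and 175 on day 4.5 of MULTI-seq 3 (9 cells), against 67.2 and 83.0 on day 5 of MULTI-seq 3 (111 cells) and MULTI-seq 1 (86 cells, all of 1 day, of which 75 had a gastruloid call). Sox18 was at 69.1, 37.5 and 83.0 CPM against 208 and 230.5. Cdh5 was at 34.6, 33.8 and 66.4 CPM against 179 and 174. Kdr was between 474 and 576 CPM in these 5 sets. These sets differ in experiment as well as in day and the earlier ones hold few cells, so the order is a description.

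The planned test of day 5 against day 4.5 in MULTI-seq 3 needed at least 5 Endothelium cells per gastruloid. It could not be made, since 0 gastruloids of day 4.5 had 5 such cells. In its place, 15 gastruloids of day 5 and 7 of day 4.5 with at least 1 Endothelium cell were compared. That limit was chosen after seeing the data. Sox18 ranged over 0, 33.7 and 256 CPM (lowest, median, highest) on day 4.5 and over 0, 199 and 258 on day 5, with 13 of 15 gastruloids above the earlier median. Cdh5 ranged over 0, 22.4 and 183 CPM and then 0, 98.0 and 255, again with 13 of 15 above. Tal1 ranged over 0, 117 and 326 CPM and then 0, 53.9 and 309. All 3 sets of values overlapped. The 0 values of Tal1 came from 1 gastruloid of day 4.5 (1 Endothelium cell) and 1 of day 5 (3 cells). None of these cells had an endothelial reference name. Each gastruloid of day 4.5 in this test held at most 3 Endothelium cells. Of the 10 genes 6 passed the filter on low counts, and 0 of these were called (edgeR, adjusted p under 0.05), where 0.429% of 1633 genes were. At an unadjusted p under 0.05 there were 2, Sox18 (log2 change 1.39, SE 0.43, edgeR adjusted p = 0.113) and Cdh5 (1.44, SE 0.55, adjusted p = 0.205). That is a looser cut, for which the 0.429% does not apply. DESeq2 called 0 of 7, against 1.38% of all genes. Without the filter, edgeR called 2 of the 10 genes, Sox18 (1.58, adjusted p = 0.0111) and Cdh5 (1.63, 0.0429), where 0.527% of 15754 genes were called. Tal1 was then at -1.04 (edgeR adjusted p = 0.141). Without the 28 cells, 0 of 8 genes were called by edgeR, where 0.515% of 2525 genes were, with Sox18 at 1.34 (adjusted p = 0.109), Cdh5 at 1.38 (0.189) and Tal1 at -1.31 (0.112). The ratio of summed UMIs, day 5 over day 4.5, was 0.403 for Tal1 (95% exact interval 0.311 to 0.526), 2.83 for Cdh5 (1.94 to 4.28) and 2.63 for Sox18 (1.88 to 3.81), intervals that cover counting error and not the spread between gastruloids.

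**Figure D4:**
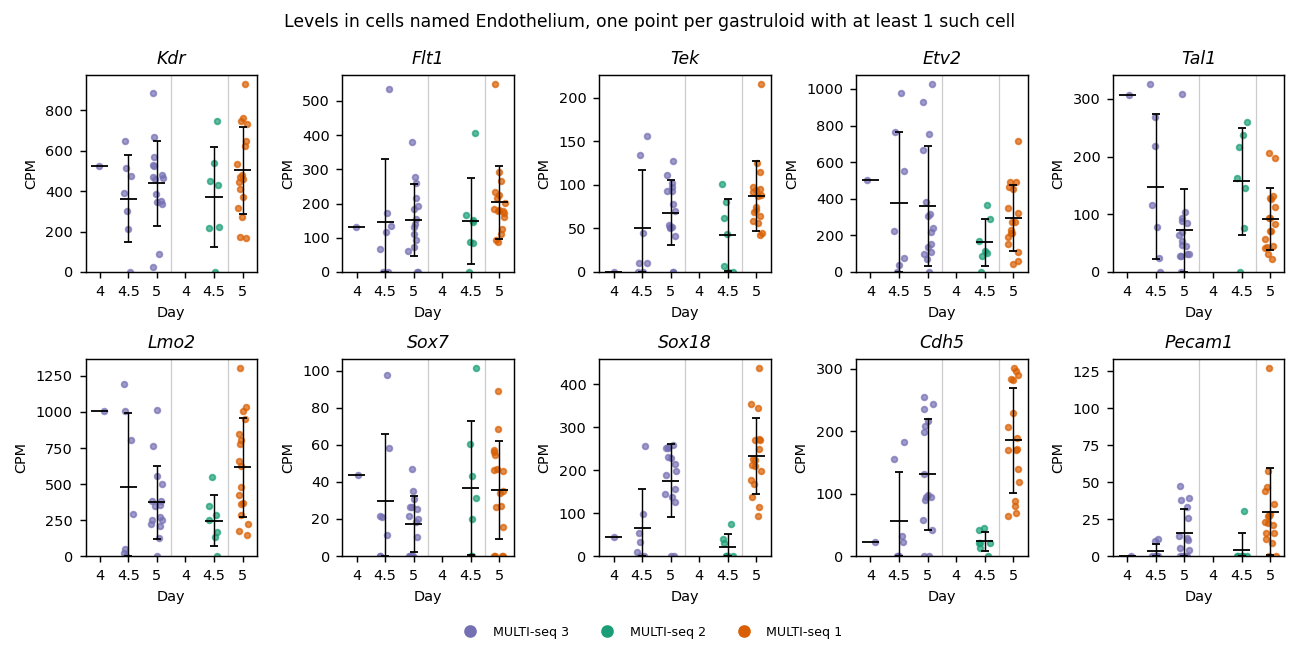
Level of each gene (CPM, vertical axes starting at 0) in cells named Endothelium, by day and experiment, 1 point per gastruloid with at least 1 such cell; horizontal bars are means and error bars are SDs, with lower bars ended at 0. For Sox18 the medians are 0 and 33.7 CPM on day 4.5 of MULTI-seq 2 and 3 and 199 and 224 CPM on day 5 of MULTI-seq 3 and 1, while for Kdr they lie between 390 and 470.

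On day 5 the Endothelium cells of MULTI-seq 3 and MULTI-seq 1 were compared over 10 and 8 gastruloids with at least 5 such cells. Of the 10 genes 8 could be tested and 0 were called (edgeR), where 20.2% of 3428 genes were. At an unadjusted p under 0.05, a looser cut for which the 20.2% does not apply, there were 0 of the 8. DESeq2 called 0 of 10, against 11.9% of all genes. Cdh5 was at 174 ± 71.5 and 165 ± 59.5 CPM (log2 difference 0.19, SE 0.25, edgeR adjusted p = 0.659). Sox18 was at 199 ± 46.5 and 229 ± 78.4 CPM (-0.09, SE 0.18, adjusted p = 0.792). Kdr was at 486 ± 98.2 and 527 ± 200.0 CPM (-0.00, SE 0.16, adjusted p = 0.997). Lmo2 had the largest of the 8 differences in size, -0.33 (SE 0.25, adjusted p = 0.396). Without the 28 cells 0 of 8 were called by edgeR as well, where 19.8% of 3441 genes were.

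Between day 3.5 and day 4 in MULTI-seq 3, when the gastruloids tested held only 1 cell named Endothelium, whole gastruloids gained Kdr and Flt1 and lost Etv2. In sums over a whole gastruloid, more cells of a type and more RNA per cell cannot be told apart. The shares of types that hold Kdr and Flt1 are therefore given beside them. Of the 10 genes 4 passed the filter and 3 of these were called (edgeR), where 60.4% of 13262 genes were. Kdr ranged over 0, 1.00 and 18.9 CPM (lowest, median, highest of 16 gastruloids) on day 3.5 and over 0.273, 8.27 and 44.8 on day 4. The groups overlapped, with 14 of 16 later gastruloids above the earlier median (log2 change 1.49, SE 0.58, edgeR adjusted p = 0.0270). Late Nascent Mesoderm made up 0.441% ± 1.41 and 8.59% ± 6.93 of cells in the same gastruloids, and its part in the result was not tested. With the Early and Late Nascent, Head and Cardiopharyngeal Mesoderm and Endothelium left out, Kdr was at 1.06 ± 1.30 and 1.74 ± 0.996 CPM. These types were picked because they hold Kdr in these same data, so a low level without them was fixed in advance.

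Flt1 ranged over 0, 1.39 and 20.6 CPM on day 3.5 and over 0.741, 15.5 and 31.7 on day 4, with 15 of 16 above the earlier median (log2 change 1.56, SE 0.52, edgeR adjusted p = 0.00993). Mature Endoderm, in which Flt1 was next highest after Endothelium in means pooled over days, made up 0.674% ± 1.12 and 7.73% ± 5.50 of cells. With Mature Endoderm and Endothelium left out, Flt1 was at 2.83 ± 3.60 and 3.96 ± 3.04 CPM. These types were picked because they hold Flt1 in these same data, so a low level without them was fixed in advance. The part of Mature Endoderm in the result was not tested. Etv2 fell from 6.57 ± 1.30 to 4.97 ± 1.80 CPM, with 15 of 16 below the earlier median (log2 change -0.42, SE 0.14, edgeR adjusted p = 0.00955), and did not pass without lane C (adjusted p = 0.0555). Its UMIs were spread over many types, so no share is set beside it. Over all cells, Primitive Streak held 11.2% of Etv2 UMIs and 12.9% of all UMIs, and Early Spinal Cord 10.2% and 9.23%. Late Nascent Mesoderm held 5.84% and 3.27%. The part of types in the fall was not tested. Lmo2 was at 29.4 ± 27.6 and 19.1 ± 13.6 CPM (edgeR adjusted p = 0.178). Tal1, which did not pass the filter, had 3 UMIs in all gastruloids of day 3.5 and 95 on day 4, a ratio of 12.1 per UMI sequenced (95% exact interval 4.01 to 59.7). That interval covers counting error and not the spread between gastruloids. Outside Endothelium, Tal1 had 81 UMIs on day 4, and the rest came from the 1 cell named Endothelium. Without the filter edgeR called 4 of the 10 genes, Tal1 (log2 change 2.98, adjusted p = 0.00362) with the 3 above, where 36.7% of 25380 genes were called. DESeq2 called the same 4 (Tal1 adjusted p = 0.00608), against 48.4% of all genes. In cells other than Endothelium the call of Tal1 held without the filter (edgeR adjusted p = 0.00589) and not with DESeq2 (0.0744).

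Between day 4 and day 4.5 in MULTI-seq 2, whole gastruloids gave no call for the 4 genes that passed the filter. Among all 11064 genes tested, edgeR called 7.36%. Of the 4, 2 were below an unadjusted p of 0.05, as were 2450 of the 11064 genes. DESeq2 gave 6 of the 10 genes an adjusted p and called Tal1 (0.0363), where 7.75% of all genes were called. Flt1 stood at 0, 13.2 and 43.7 CPM (lowest, median, highest of 11) on day 4 and at 0, 3.66 and 10.3 on day 4.5 (n = 12), with 12 of 12 below the earlier median (log2 change -1.61, SE 0.55, edgeR adjusted p = 0.0764). Its adjusted p was 0.0487 with gastruloids of at least 100 cells and 0.0293 without lane 2. In cells other than Endothelium, 1 of 4 was called, against 7.51% of 11049 genes: Flt1 fell from 13.9 ± 12.5 to 3.44 ± 3.23 CPM (log2 change -1.99, SE 0.55, edgeR adjusted p = 0.0253). That call was lost with DESeq2 (adjusted p = 0.0755) and without lane 3 (edgeR adjusted p = 0.0833). Mature Endoderm made up 5.43% ± 4.53 and 2.42% ± 2.65 of cells, and Flt1 outside Mature Endoderm and Endothelium was at 2.98 ± 3.38 and 1.46 ± 1.20 CPM. A low level there was again fixed by the choice of types, and the part of Mature Endoderm was not tested. Without the filter, edgeR called Tal1 (5 UMIs on day 4, 95 on day 4.5, log2 change 3.20, adjusted p = 0.0343) and Sox7 (1 and 28 UMIs, log2 change 3.08, adjusted p = 0.0459), where 3.5% of 21994 genes were called.

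Between day 4.5 and day 5 in MULTI-seq 3, Cdh5, Sox18 and Tek rose in whole gastruloids when genes of low counts were kept in the test. They are 3 of the 5 genes with most of their UMIs in Endothelium, a grouping made from these same data, day 5 cells included. Endothelium cells made up a mean of 0.252% and 1.10% of cells on these days, and their part in the result was not tested. Tal1 and Sox7, also of the 5, did not pass. Cdh5 stood at 0, 0.120 and 1.90 CPM (lowest, median, highest of 16 whole gastruloids) on day 4.5 and at 0, 1.97 and 8.75 on day 5. Sox18 stood at 0, 0.237 and 2.50 CPM and then at 0, 3.02 and 7.74. Tek stood at 0, 0.0377 and 1.31 CPM and then at 0, 1.20 and 3.80. All 3 pairs of groups overlapped. These genes did not pass the filter. Of the 4 that did, 0 were called by edgeR, where 13.5% of 12298 genes were. At an unadjusted p under 0.05 there was 1 (Kdr, 4.00 ± 4.43 and 9.98 ± 8.85 CPM, edgeR adjusted p = 0.165), where 3493 of the 12298 genes were. Without the filter, edgeR called 3, Cdh5 (log2 change 3.08, adjusted p = 0.00803), Sox18 (2.81, 0.00257) and Tek (2.47, 0.0213), where 5.73% of 24583 genes were called. DESeq2 called Cdh5, Sox18 and Tek as well, against 12.6% of all genes. Without the filter Tal1 was at 0.563 ± 0.941 and 0.873 ± 0.700 CPM (edgeR log2 change 0.62, adjusted p = 0.639) and Sox7 at 0.134 ± 0.278 and 0.407 ± 0.457 CPM (1.58, adjusted p = 0.209).

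In cells other than Endothelium, the same comparison called 1 of the 4 genes that passed, against 12.9% of 12277 genes. Etv2 fell from 7.31 ± 3.00 CPM (lowest 3.64, median 6.82, highest 14.4) to 4.74 ± 1.24 (2.78, 4.36 and 6.69), with overlap and 16 of 16 gastruloids of day 5 below the earlier median (log2 change -0.65, SE 0.17, edgeR adjusted p = 0.00934). With the other cells of an endothelial reference name also left out the log2 change of Etv2 was -0.57 (SE 0.16, edgeR adjusted p = 0.0140). Outside Endothelium, Etv2 was a low signal spread over many types, neural ones included. Over all cells, Early Spinal Cord held 10.2% of Etv2 UMIs and 9.23% of all UMIs, and Late Spinal Cord 6.03% and 6.84%. Late Nascent Mesoderm held 5.84% and 3.27%. The part of types in the fall was not tested. Kdr outside Endothelium was at 2.63 ± 3.27 and 2.91 ± 5.07 CPM (log2 change 0.11, SE 0.64, edgeR adjusted p = 0.955). The ratio of summed UMIs outside Endothelium, day 5 over day 4.5, was 0.864 for Cdh5 (95% exact interval 0.468 to 1.65). It was 0.742 for Sox18 (0.450 to 1.24) and 1.19 for Tek (0.441 to 3.70). These intervals cover counting error and not the spread between gastruloids.

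**Figure D5:**
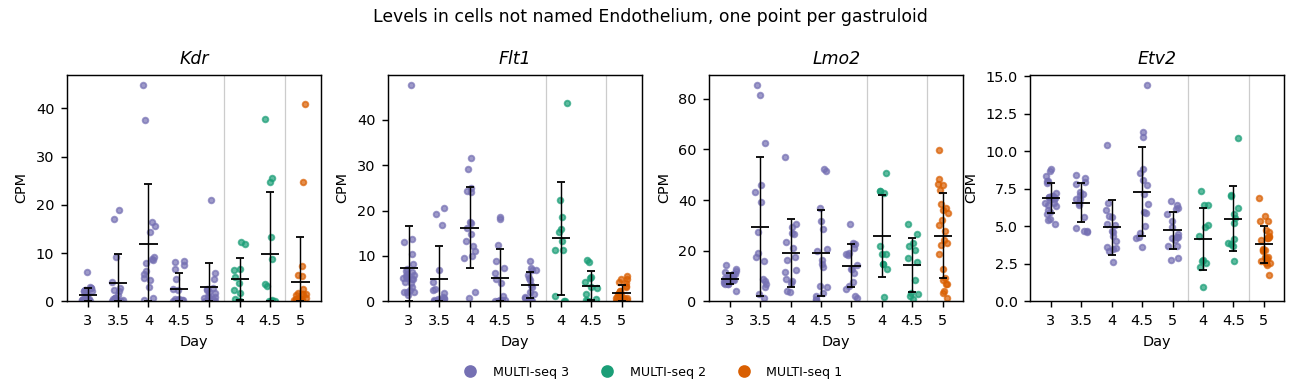
Level of the 4 genes with most UMIs in cells other than Endothelium (CPM, vertical axes starting at 0) by day and experiment, 1 point per gastruloid; horizontal bars are means and error bars are SDs, with lower bars ended at 0. Kdr and Flt1 have their highest MULTI-seq 3 means on day 4 (11.8 and 16.2 CPM), and the Etv2 mean is 7.31 CPM on day 4.5 and 4.74 on day 5.

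Within single types, 3 comparisons gave a call. In Cardiopharyngeal Mesoderm of MULTI-seq 2, the mesoderm of the heart and pharynx, the 5 gastruloids of day 4 had Kdr at 0, 2.27, 6.23, 11.7 and 29.5 CPM, and the 4 of day 4.5 at 40.7, 51.9, 157 and 171. The groups did not overlap, and Kdr was the 1 gene of the 10 that passed the filter (log2 change 3.41, SE 0.59, edgeR adjusted p = 0.00647), where 0.533% of 4506 genes were called. The values rest on 16 and 148 UMIs. The call was lost with DESeq2 (adjusted p = 0.0675) and when 1 gastruloid of day 4 was left out (edgeR log2 change 2.88, adjusted p = 0.0581), and without lane 3 Kdr did not pass the filter and was not tested. Without the filter, edgeR called 2 of the 10 genes, Kdr and Etv2 (log2 change 3.06, adjusted p = 5.99e-06), where 0.754% of 15259 genes were called. The Etv2 value rests on 6 and 56 UMIs, and DESeq2 gave Etv2 no adjusted p. Of the cells of this type in the pool, 1 had an endothelial reference name, and its part in the result was not tested.

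In Early Posterior PSM of MULTI-seq 3, Lmo2 fell from 52.6, 113 and 126 CPM (lowest, median, highest of 14 gastruloids) on day 3.5 to 26.1, 46.4 and 167 on day 4 (n = 16). The groups overlapped, and 15 of 16 later gastruloids were below the earlier median (log2 change -0.91, SE 0.17, edgeR adjusted p = 2.91e-05). Lmo2 was the only one of the 10 that passed the filter, where 38.3% of 9589 genes were called. Without the filter, Flt1 rose there as well (log2 change 1.24, edgeR adjusted p = 0.000599), where 19.3% of 21597 genes were called, and DESeq2 called Lmo2 and Flt1, against 27.6% of all genes. On day 3 Lmo2 was at 14.5 ± 11.6 CPM in Early Posterior PSM (n = 19). In Late Posterior PSM its mean lay between 72.1 and 114 CPM on every day and experiment with at least 3 gastruloids.

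In Mature Endoderm of MULTI-seq 3, Lmo2 fell from 6.23, 35.5 and 130.5 CPM (lowest, median, highest of 8) on day 4.5 to 3.81, 14.0 and 36.2 on day 5 (n = 12), with overlap and 11 of 12 below the earlier median (log2 change -1.80, SE 0.42, edgeR adjusted p = 0.0229), where 1.45% of 7561 genes were called. The call was lost without lane A (adjusted p = 0.0533), without lane C (0.200) and with at least 10 such cells per gastruloid (0.0872). Flt1 in the same cells was at 104 ± 60.1 and 65.9 ± 46.2 CPM (edgeR adjusted p = 0.330). On the other days of MULTI-seq 3 with at least 3 gastruloids of enough cells, Mature Endoderm had Flt1 at 238 ± 47.6 CPM on day 3 (n = 3), and 137 ± 58.2 on day 4 (n = 14).

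Kdr by day in the mesoderm of MULTI-seq 3 stood at 7.80 ± 6.70 CPM on day 3 (n = 24), 72.4 ± 29.9 on day 3.5 (n = 7) and 140 ± 63.2 on day 4 (n = 6) in Early Nascent Mesoderm. Etv2 in the same cells was at 11.4 ± 5.32, 13.0 ± 8.93 and 23.9 ± 11.8 CPM, and Lmo2 at 9.44 ± 7.89, 67.8 ± 18.5 and 76.6 ± 34.9. These levels were not tested. Here and in Head Mesoderm the days cross separate lanes of MULTI-seq 3. Head Mesoderm had Kdr at 26.3 ± 16.1 CPM on day 4 (n = 8), 72.5 ± 24.4 on day 4.5 (n = 6) and 61.2 ± 46.8 on day 5 (n = 10), with overlapping SDs on the last 2 days.

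Other genes of the pathway were read from lists that name no member. From day 3.5 to day 4 in MULTI-seq 3, 4 of 7 tested VEGF ligands and co-receptors rose and 0 fell, among them the co-receptor Nrp1 (5.17 to 23.5 CPM, log2 change 2.01, SE 0.56, edgeR adjusted p = 0.00251), Vegfa (13.8 to 27.9 CPM, log2 change 1.00) and Pgf, another ligand of FLT1 (0.72). Of 9 tested endothelial transcription factors 6 rose and 0 fell, led by Foxc2 (3.61), the ETS factor Fli1 (3.03) and the SoxF factor Sox17 (2.70). Foxc2 is also a gene of somite mesoderm and Sox17 of endoderm. Of 8 tested arterial and Notch genes 7 rose, led by the Notch targets Hey1 (1.68) and Hey2 (1.44) and the ligand Efnb2 (1.42). Of 8 tested junction and surface genes 3 rose and Plvap fell (-1.74). The median log2 change was 0.27, 1.07, 1.24 and 0.30 over these 4 lists and 0.01 over all genes tested, of which 31.1% were called higher. Of the other lists, 0 of 2 angiopoietin and TIE genes, 1 of 3 venous genes (Nr2f2, 4.21), 3 of 3 partners of TAL1, and 1 of 1 blood gene (Runx1, 2.28) rose and 0 fell. Among markers of other tissues, 5 of 7 mesoderm progenitor genes, 2 of 2 cardiac, 4 of 5 endoderm and 1 of 4 neural genes rose, while 1 mesoderm and 1 neural gene fell. The counts of all lists were the same when Endothelium cells were left out, which took out 1 cell of 13750 on day 4. Leaving out 1 cell could hardly change them, so no conclusion is drawn from it.

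From day 4.5 to day 5 in MULTI-seq 3, 5 of 8 tested junction and surface genes rose and 0 fell. They were led by Rasip1, a regulator of vessel tube formation (1.32 to 4.54 CPM, log2 change 1.75, SE 0.46, edgeR adjusted p = 0.00973), the endothelial GTPase Rhoj (1.66, adjusted p = 0.0531 without lane A and 0.0772 without lane B) and the adrenomedullin receptor partner Ramp2 (0.90, 0.0630 without lane B), with a list median of 0.67. In cells other than Endothelium 5 of the list were tested and 1 rose, Calcrl (0.41), with a list median of -0.09 where 6.1% of genes were called higher. Fewer genes passed the low-count filter once Endothelium cells were left out. The counts and medians with and without these cells are therefore over different genes, and no conclusion is drawn from their contrast. Of the other lists, 2 of 7 VEGF genes rose (Nrp1 1.28 and Vegfb 0.15, the latter lost without lane C, edgeR adjusted p = 0.0834), as did 1 of 8 arterial and Notch genes and 1 of 3 venous genes (Nr2f2 0.69). The arterial gene was Hey2 (0.51), whose call was lost without the filter (edgeR adjusted p = 0.0510), without lane A (0.0679) and without lane C (0.0850). None of 1 angiopoietin and TIE, 3 TAL1 partner, 1 blood, 5 mesoderm progenitor, 1 cardiac, 5 endoderm and 4 neural genes tested passed in either direction. Of 9 tested transcription factors 3 rose with and 3 without Endothelium cells (Ets1 1.40 and 1.32, Fli1 1.55 and 1.17, Elk3 0.92 and 0.63). Outside Endothelium the call of Fli1 was lost without lane C (edgeR adjusted p = 0.0920) and that of Elk3 without lane A (0.146), and both were lost without the filter on low counts (0.0558 and 0.0624). The median over all genes tested was -0.00, and 6.35% were called higher. Within Endothelium cells, the venous factor Nr2f2 rose from 39.6 to 108 CPM (log2 change 1.72, SE 0.37, edgeR adjusted p = 0.0223) in the comparison that called 0.429% of genes, and did not pass without lane A (0.0731), without lane B (0.0914) or with at least 2 Endothelium cells per gastruloid (0.0966). Without lane C 0 of 1543 genes were called. Without the 28 cells it passed (0.0358). From day 4 to day 4.5 in MULTI-seq 2, 0 of 5 VEGF genes, 0 of 3 junction genes and 0 of 8 arterial genes were called, and 1 of 7 transcription factors, Sox17, fell (-1.97, edgeR adjusted p = 0.0412, 0.0870 without lane 3, 0.0520 without the filter and DESeq2 0.126), where 4.33% of genes were called lower. Sox17 is also on the endoderm list, of which 3 of 5 genes fell (Foxa2 -1.87 and Epcam -1.35 besides). Without lane 3 the call of Epcam was lost as well (edgeR adjusted p = 0.0592), which left Foxa2. In the other lists the cardiac gene Myl7 (-2.74), the mesoderm gene Mesp1 (-1.58) and the venous gene Aplnr (-1.10) fell and the neural gene Pax6 (2.18) rose. The call of Mesp1 was lost without the filter (edgeR adjusted p = 0.0548) and with DESeq2 (0.0572), and that of Aplnr without lane 3 (edgeR adjusted p = 0.0888). Tcf3, a partner of TAL1, passed at 0.11 and lost the call with RLE factors (edgeR adjusted p = 0.0518), without the filter (0.0764), with DESeq2 (0.0643), with at least 100 cells (0.248) and without lane 2 (0.336) or lane 3 (0.314). The share of endoderm cells is given with Flt1 above, and its part in these results was not tested.

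Across 21 types, from day 4 on, the mean standardised profile of the 10 genes was most like that of Egfl7, a secreted endothelial protein (Pearson r = 0.977, 898 CPM in Endothelium). Myzap (0.971), Tspan8 (0.968), Grap (0.968), Tmem204 (0.966), Prl3b1 (0.965), Clec1b (0.964) and Icam2, an endothelial adhesion molecule (0.964), followed. Among the 10 genes themselves, r with that profile was 0.965 for Tal1, 0.961 for Sox7, 0.959 for Cdh5, 0.951 for Tek, 0.931 for Pecam1, 0.923 for Sox18, 0.875 for Etv2, 0.725 for Flt1, 0.693 for Kdr and 0.663 for Lmo2. The points are types that share libraries, and each of the 10 enters the profile, so these values carry no test.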

How the data were processed

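The deposited matrices hold counts, whole UMIs per gene and cell barcode from 10x Genomics v3.1 3′ libraries. Per the submitters' processing notes, the authors used Cell Ranger 6.0.0, Seurat and mm10. Cells, type names, days and gastruloid calls came from the authors' deposited cell table, and cells with no call or a doublet call entered no sum by gastruloid and no test, but are in the values pooled over all cells. Counts of a gastruloid were summed over lanes, which are technical splits. Gastruloids under 30 cells (1 of day 4 in MULTI-seq 2), or under 5 cells of a type, were left out. The main test was edgeR 4.0.16 (quasi-likelihood, TMM, default filter on low counts), with Benjamini-Hochberg adjustment over all genes tested and a call at 0.05. DESeq2 1.42.0 (R 4.3.3) and other settings were alternatives. Shares of cells were compared by permutation with 100000 resamples. On simulated counts for day 4 against day 3.5 (13262 genes) the test recovered 95% of 2-fold and 100% of 4-fold changes. For Endothelium between experiments (3428 genes) it recovered 82% and 100%, and on day 5 against day 4.5 (1633 genes) 87% and 99%. These counts covered only genes that passed the filter, which 4 of the 10 did not in the last comparison. How far the 87% and 99% hold for day 4.5 gastruloids of at most 3 Endothelium cells was not tested. On the real counts that comparison called 0 to 34 genes when a lane was left out. The 10 genes and all lists were chosen with earlier results of these data known. Named genes are the 10, at most 3 called genes of the largest change per list and comparison, and the 8 of most similar profile with at least 20 CPM in some type. The planned test within Endothelium for MULTI-seq 2 (2 and 0 gastruloids with enough cells) could not be made. Nor could that of day 5 against day 4.5 in MULTI-seq 3 (10 and 0), which was replaced by at least 1 cell. The planned tests within Late Nascent Mesoderm (14 and 2) and Cardiopharyngeal Mesoderm in MULTI-seq 3 (1 and 1) could not be made either. The gene lists held 8 VEGF, 4 angiopoietin and TIE, 12 transcription factor, 17 junction and surface, 11 arterial and Notch, 3 venous, 6 TAL1 partner and 11 blood genes, and 7 mesoderm progenitor, 6 cardiac, 5 endoderm and 4 neural markers. The TAL1 partner list also holds Lyl1, a relative of TAL1. Versions of Python (3.11.15), NumPy (2.4.6), SciPy (1.17.1) and pandas (2.3.3) were used for sums and permutations.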

Additional observations from a re-analysis of the deposited data

Results flagged for a closer look

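Of 24 groups of 4 to 10 gastruloids, 3 had a value apart from the rest by Dixon's criterion, where chance gives about 1 in 20. Tek in Endothelium cells of day 5 of MULTI-seq 1 was 215.9 CPM in 1 gastruloid, with the next at 125 and a median of 91.1. Lmo2 in Endothelium cells of day 5 of MULTI-seq 3 was 1013 CPM in 1 gastruloid, with the next at 499.9 and a median of 348. Lmo2 in Mature Endoderm of day 4.5 of MULTI-seq 3 was 130.5 CPM in 1 gastruloid, with the next at 58.8 and a median of 35.5, and this gastruloid is in the earlier group of the Lmo2 test in that type.

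Endothelium cells were also present in lanes that carry no gastruloid calls and entered no comparison. The 10X day 4 lane held 6 of 2440 cells (0.246%, exact Clopper-Pearson 95% interval 0.0903% to 0.534%), lane 1 of pool C of MULTI-seq 2 held 12 of 2835 (0.423%, 0.219% to 0.738%) and lane 2 held 8 of 2271 (0.352%, 0.152% to 0.693%). The 10X day 3 lane held 0 of 3058, a limit of 0.0981%. Pool C mixed cells of day 4 and day 4.5. The intervals and the limit treat cells as independent and do not cover the spread between gastruloids.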

How the results depend on the processing

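No paired analysis was possible because the gastruloids of the 2 days of a pool share no number, and the numbered lanes are technical splits of 1 pool. The counts of the 10 genes called were unchanged by another scaling (edgeR with RLE factors). In MULTI-seq 2, whole gastruloids (0 called) gave 2 without the filter on low counts, 1 with DESeq2, 1 with at least 100 cells per gastruloid and 0 to 1 leaving out a lane, with 340 to 535 genes called of 814. Outside Endothelium (1) there were 0 with DESeq2 and 0 to 1 leaving out a lane (353 to 539 genes of 830). In MULTI-seq 3, day 5 against day 4.5 (0) gave 3 without the filter and 3 with DESeq2. Within Endothelium (0) that comparison gave 2 without the filter and 1 with at least 2 cells. Its 7 genes called became 83 without the filter, 32 with DESeq2, 13 without the 28 cells, 23 with at least 2 cells and 0 (without lanes B or C) to 34 (without lane A). Endothelium between experiments (693 genes) gave 203 to 616 leaving out a lane, with 203 and 307 without lanes 2 and 1 of MULTI-seq 1 and 434 without lane C of MULTI-seq 3. Early Posterior PSM (1) gave 2 without the filter and 2 with DESeq2. Cardiopharyngeal Mesoderm (1) gave 2 without the filter, 0 with DESeq2 and 0 to 1 leaving out a gastruloid or lane, with 115 genes called without the filter and 6 to 50 leaving 1 out (24 before). Leaving out lane 2 left 2 gastruloids of day 4.5 there, and no fit. Mature Endoderm (1) gave 0 with at least 10 cells and 0 to 1 leaving out a lane, with 211 genes called without the filter and 30 to 100 leaving out a lane (110 before). The Endothelium share in MULTI-seq 2 was 0.867 points with at least 100 cells and 0.784 to 0.799 without a lane, and did not pass in these. The cause was not tested.

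Log2 changes near 0 turned sign. For Etv2 in whole gastruloids, day 5 against day 4.5, the value was 0.00304 without the filter and -0.078 to 0.060 without a lane, and for Flt1 -0.15 to 0.29 without a lane. Within Endothelium on the same days, Etv2 was -0.97 to 0.021 without a lane, and Flt1 -0.20 to 0.24 without a lane, 0.11 without the filter and 0.43 with at least 2 cells. Between experiments, leaving out a lane gave -0.52 to 0.15 for Kdr, -0.19 to 0.095 for Etv2, -0.13 to 0.087 for Tal1, -0.18 to 0.50 for Cdh5, -0.75 to 0.11 for Tek, -0.43 to 0.10 for Flt1 and -0.43 to 0.020 for Sox18. There Kdr was 0.18, Etv2 0.052 and Sox18 0.091 without the filter, Kdr 0.022 with DESeq2 and 0.049 without the 28 cells, and Etv2 0.00428 and Cdh5 -0.14 with at least 1 cell. Etv2 in Early Posterior PSM was -0.057 with DESeq2. None of these was past the threshold in either setting.

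The shares of all 303 Endothelium cells with a UMI follow depth. Unthinned and at 2000 UMIs they were 91.1% and 53.8% for Kdr, 79.5% and 38.0% for Etv2, 67.0% and 14.5% for Tal1, 87.8% and 44.6% for Lmo2, 67.0% and 19.5% for Cdh5, 24.1% and 2.97% for Pecam1, 62.0% and 9.90% for Tek, 74.3% and 23.8% for Flt1, 46.2% and 6.93% for Sox7, and 67.7% and 20.5% for Sox18. At these depths genes such as Sox7 and Pecam1 are missed in many cells, and gastruloids of day 4.5 held at most 3 Endothelium cells in MULTI-seq 3. The settings without the 28 cells and with at least 1 or 2 cells were chosen after seeing the data.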

Other observations

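The 275 Endothelium cells with an endothelial reference name carried the venous genes Nr2f2 (100.6 CPM), Aplnr (75.0) and Ephb4 (29.9), which other cells held at 30.9, 18.8 and 20.3 CPM. Nr2f2 was higher in Mature Somites (161 CPM) and in the 28 cells without an endothelial reference name (129.6 CPM). Among arterial genes, 8 of 11 were above their level in other cells, with a summed 193 CPM against 186. The Notch ligand Dll4 was at 11.05 CPM against 0.0613, Jag1 at 4.20 against 20.2, Cxcr4 at 3.00 against 8.06 and Efnb2 at 39.1 against 42.1, while the gap junction gene Gja5 had 1 UMI and Gja4 14. The lymphatic and venous VEGF receptor Flt4 was at 137 CPM against 0.425, and Tie1, the partner of TEK, at 52.8 against 0.0206. Of 17 junction and surface genes 17 were above their level in other cells, with a summed 3365 CPM against 55.1, Cldn5 (364 CPM) and Egfl7 (833) among them. Of 12 transcription factors 11 were above, Foxc2 being the exception (22.5 against 39.5 CPM). All these are descriptions of cells that were clustered on expression.

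Of 11 blood genes 4 were above their level in other cells, with a summed 26.5 CPM against 3.15. Itga2b made up 19.8 CPM (0.264 in other cells) and Spi1 3.96 (0.0621), while Gata1, Hbb-bh1, Hba-x and Ptprc were each at 0 UMIs. Of 6 genes on the list of TAL1 partners, which also holds its relative Lyl1, 4 were above their level in other cells. Lyl1 was at 47.9 CPM, Gata2 at 18.2 and Ldb2 at 9.12, against 0.0455, 0.173 and 1.78 in other cells. Ldb1 was at 54.7 against 46.1 CPM, while Tcf3 was lower (80.1 against 107.6 CPM).

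The 28 cells named Endothelium without an endothelial reference name had, among genes chosen after their values were seen, Col3a1 at 1036 CPM against 2.04 in the 275 cells, Cdh11 at 514 against 21.3, Fabp7 at 492 against 0.720, Vtn at 387 against 1.32, Foxd1 at 290 against 11.8 and Zic1 at 212 against 0.961. Their median UMI count was 0.529 times that of their lane, and that of the 275 cells 1.14 times. At most 4 came from 1 gastruloid, which held 23 Endothelium cells.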
